A study of Mus musculus with 8 samples.

Results

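The genes described here encode the adult globin chains of hemoglobin and proteins of red cell heme, membrane and metabolism, measured in whole lung RNA of 4 control and 4 TTI-101-treated mice. Of 8 genes chosen, 7 had a row among the 54532 genes counted, namely Hba-a1, Hba-a2, Hbb-bs, Hbb-bt, Alas2, Slc4a1 and Bpgm, and the other was not analysed here. They were chosen with their levels in these same 8 mice known, as red cell genes that stood higher after TTI-101, so their own differences between the groups are given as a description, with no test. Of the 7, 6 passed the filter on low counts, under which 17138 genes were tested. Slc4a1 did not pass.

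All 8 mice were CC-LR mice, which carry a CCSP-Cre allele and an LSL-K-ras G12D allele on a C57BL/6 background. Cre is driven by the club cell secretory protein locus, so mutant K-ras is switched on in airway epithelial cells and lung tumors arise without further treatment. The treated mice received TTI-101, a small-molecule inhibitor of STAT3, for 4 weeks, and both groups were taken at 14 weeks of age. Each library came from the whole lung of 1 mouse, tumor and normal tissue together. A legend for lung sections of the study calls its controls untreated, and the sources used here do not say so of these 4 mice.

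Hemoglobin is a tetramer of alpha-type and beta-type globin chains, each holding a heme group that binds oxygen. Its chains are made in great excess in erythroid precursors of the bone marrow, and circulating reticulocytes still carry globin mRNA, whereas mature red cells of the mouse have lost the nucleus and most RNA. In lung tissue, blood held in the vessels brings such transcripts into an RNA sample. By the study's methods, lungs frozen for RNA came from lavaged mice after blood had been drawn and the lungs rinsed with buffered saline through the right ventricle. The labels give the tissue of these libraries as cryopreserved lung, and the blood left in each lung was not measured.

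The 4 globin genes lie in pairs of nearly identical copies, and the sequences are shown because they set what a read can tell apart. The coding sequences of Hba-a1 and Hba-a2 differed at 1 of 426 bases (99.8% identity), C381T, and those of Hbb-bs and Hbb-bt at 1 of 441 bases (99.8% identity), C417T, with positions counted from 1 at the A of the start codon and the base of the first-named gene written first. Both differences fall in the last coding exon, printed here 5′ to 3′ on the coding strand of GRCm38 with the differing base in capitals. The stretches are chr11:32284263-32284388 (plus strand), chr11:32297080-32297205 (plus strand), chr7:103826668-103826793 (minus strand) and chr7:103812659-103812784 (minus strand).
Hba-a1: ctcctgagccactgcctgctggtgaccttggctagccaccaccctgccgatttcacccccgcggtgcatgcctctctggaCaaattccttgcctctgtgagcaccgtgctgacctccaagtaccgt
Hba-a2: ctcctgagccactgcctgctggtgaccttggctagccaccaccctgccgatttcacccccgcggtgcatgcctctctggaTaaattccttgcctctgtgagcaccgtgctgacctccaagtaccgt
Hbb-bs: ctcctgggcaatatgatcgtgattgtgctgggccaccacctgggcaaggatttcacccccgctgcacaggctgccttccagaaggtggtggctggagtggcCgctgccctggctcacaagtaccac
Hbb-bt: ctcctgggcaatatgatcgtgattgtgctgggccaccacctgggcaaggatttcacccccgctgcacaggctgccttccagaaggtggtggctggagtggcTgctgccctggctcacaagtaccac

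Of all 100-base windows of the annotated transcript, 56.5% in Hba-a1 and 74.5% in Hba-a2 were identical to a window of the other alpha copy, and 62.6% in Hbb-bs and 54.8% in Hbb-bt to one of the other beta copy. A read from such a window cannot be assigned to 1 copy, and how the authors' counting treated it was not given in the sources used here. The split between copies is therefore uncertain, and the sum of a pair is the safer measure unless reads with several placements were dropped.

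Promoter stretches of 4 of the genes are shown as sequence only, and their part in the levels measured here was not tested. They come from RefSeq on GRCm38.p6, which held an entry for 6 of the 7 genes. Each is the longest run outside any annotated untranslated region of its gene, within the 150 bases before the RefSeq start site. Genes with only a short run, Hba-a1 among them, are not shown. The Hbb-bs stretch lies inside the span of that gene in the deposited counts, and so does the full Hba-a1 window. These 2 are therefore not upstream of the gene starts used for counting. Capitals mark, on either strand, the letters CACCC, the CCAAT box and the GATA word AGATAA, in which the first letter may also be T and the last also G. The stretches are chr11:32296342-32296488 (plus strand), chr7:103827929-103828011 (minus strand), chr7:103813997-103814073 (minus strand) and chrX:150547267-150547374 (plus strand).
Hba-a2: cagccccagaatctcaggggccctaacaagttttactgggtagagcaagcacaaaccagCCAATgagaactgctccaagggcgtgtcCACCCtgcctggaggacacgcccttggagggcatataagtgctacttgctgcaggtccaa
Hbb-bs: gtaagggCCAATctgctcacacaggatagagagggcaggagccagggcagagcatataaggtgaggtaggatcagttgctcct
Hbb-bt: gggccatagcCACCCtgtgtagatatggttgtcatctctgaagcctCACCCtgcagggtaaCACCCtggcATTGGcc
Alas2: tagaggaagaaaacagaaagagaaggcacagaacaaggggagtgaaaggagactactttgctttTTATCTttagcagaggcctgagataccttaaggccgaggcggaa

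Over the full 150 bases, CACCC occurred 1 time in Hba-a1, Hba-a2 and Hbb-bs and 3 times each in Hbb-bt and Alas2. CCAAT occurred 1 time in Hba-a1, Hba-a2, Hbb-bs and Bpgm and 3 times in Hbb-bt, while a GATA word was found 1 time, in Alas2. Of 32851 promoter windows of the same length, 37.4% held CACCC, 24.5% held CCAAT and 16% held a GATA word. The alpha pair shared 96.1% of aligned promoter bases and the beta pair 72.4%, against 49.4% between Hba-a1 and Hbb-bs. A match is a run of letters and does not show binding.

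Total counts ran from 16075855 to 26873509 per library. Control mouse 4 stood apart from the other 7 libraries on the first principal component, which held 45.2% of the variance (101.1 against −39.35 to 17.92), and it had the highest share of mitochondrial counts (5.564% against 2.009% to 2.854%). Values without it are given below for most genes named, where they moved by more than 1.5 times or changed a call. Libraries are named by group and replicate number, and the labels describe each as a separate mouse.

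Globin transcripts were a small part of every library and were more abundant in the treated group. The 4 genes together gave 0.01241%, 0.005843%, 0.007837% and 0.02387% of counts in control mice 1 to 4, and 0.1583%, 0.02021%, 0.04201% and 0.0623% in treated mice 1 to 4. As CPM (counts scaled to library size by the trimmed mean of M values), their sum was 122.3, 57.45, 79.22 and 258.7 in the controls and 1546, 201.9, 419.9 and 609.1 in the treated mice. The groups overlapped at one point, since treated mouse 2 lay below control mouse 4. The mean was 129.4 ± 90.31 CPM (SD, n = 4) in controls and 694.2 ± 591.6 CPM (SD, n = 4) in treated mice, a 5.36-fold difference, or 2.42 on the log2 scale. It was 1.67 on the log2 scale without treated mouse 1, the highest mouse, 3.02 without control mouse 4 and 2.25 without both. The highest of the 8 mice held 26.9 times the lowest, and the SD of the treated group was as large as the difference between the means. More red cells in the treated tissue and more RNA per red cell cannot be told apart in such libraries, nor can fewer cells and less RNA per cell in the controls.

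**Figure D1:**
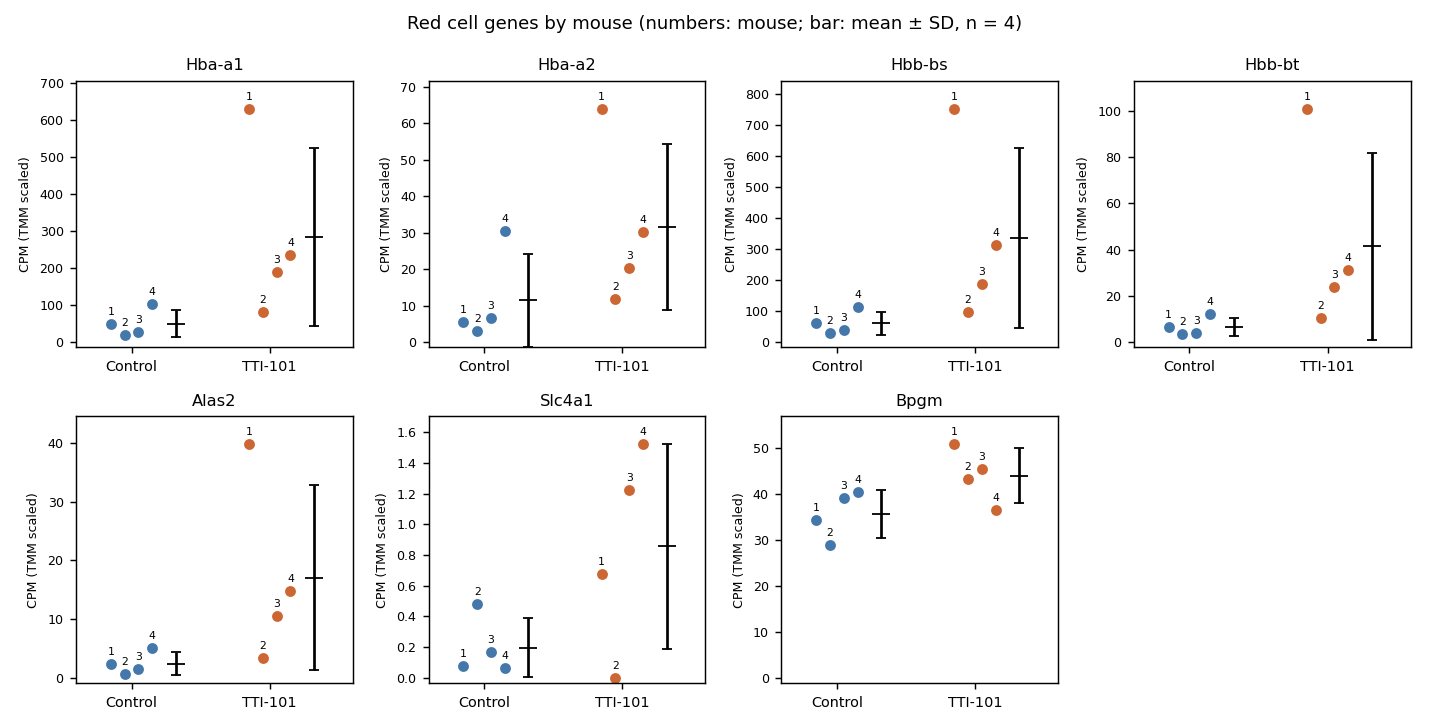
CPM of each of the 7 genes (y axis, linear, a scale of its own for each gene) in the 4 control (blue) and 4 TTI-101-treated (orange) mice, with points numbered by mouse and bars giving mean ± SD (n = 4). Treated mouse 1 was the highest for every gene but Slc4a1, and Bpgm stayed between 28.99 and 50.87 CPM in all mice.

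The alpha chain is encoded by Hba-a1 and Hba-a2. Hba-a1 (ENSMUSG00000069919, chr11:32283511-32284465) had 49.67, 19.97, 28.85 and 102 CPM in control mice 1 to 4 and 629.8, 81.9, 189.3 and 234.7 CPM in treated mice 1 to 4. All treated mice except mouse 2 lay above every control. The means were 50.13 ± 36.77 and 283.9 ± 239.3 CPM (SD, n = 4 each), and the fitted log2 fold change was 2.50 (SE 0.65). Hba-a2 (ENSMUSG00000069917, chr11:32296489-32297298) had 5.503, 3.049, 6.713 and 30.45 CPM in controls and 63.87, 11.83, 20.18 and 30.29 CPM in treated mice. Here the groups overlapped more, because control mouse 4 was level with treated mouse 4 and only treated mouse 1 exceeded every control. Its log2 fold change was 1.48 (SE 0.71), and it was 0.87 without treated mouse 1 and 2.64 without control mouse 4.

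The beta chain is encoded by Hbb-bs and Hbb-bt, the adult pair carried by C57BL/6 mice. Hbb-bs (ENSMUSG00000052305, chr7:103826534-103828096) had 60.64, 31.02, 39.5 and 113.9 CPM in controls and 751.3, 97.82, 186.7 and 313 CPM in treated mice. Hbb-bt (ENSMUSG00000073940, chr7:103812524-103813996) had 6.53, 3.407, 4.161 and 12.34 CPM in controls and 100.8, 10.39, 23.79 and 31.08 CPM in treated mice. In both, treated mouse 2 lay below control mouse 4 and the other 3 treated mice lay above every control. The log2 fold change was 2.46 (SE 0.61) for Hbb-bs and 2.66 (SE 0.66) for Hbb-bt. Leaving out treated mouse 1 gave 1.70 and 1.72, and leaving out control mouse 4 gave 2.96 and 3.14.

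Alas2 encodes the erythroid form of aminolevulinate synthase, the first enzyme of heme synthesis. Alas2 (ENSMUSG00000025270, chrX:150547375-150570638) had 2.348, 0.538, 1.442 and 5.117 CPM in controls and 39.79, 3.363, 10.45 and 14.72 CPM in treated mice. The mice fell in the same order as for Hba-a1, Hbb-bs and Hbb-bt, again with treated mouse 2 below control mouse 4. Its mean was 2.361 ± 1.98 CPM in controls and 17.08 ± 15.85 CPM in treated mice (SD, n = 4 each), the largest log2 fold change of the 6 genes fitted (2.87, SE 0.77). That value was 2.01 without treated mouse 1 and 3.53 without control mouse 4. The highest mouse held 74 times the lowest.

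Slc4a1 encodes the anion exchanger of the red cell membrane, and Bpgm the mutase that makes bisphosphoglycerate, which lowers the oxygen affinity of hemoglobin. Slc4a1 (ENSMUSG00000006574, chr11:102348824-102366203) had 2, 8, 3 and 1 reads in controls and 18, 0, 22 and 25 reads in treated mice. These are too few to rank the mice, and treated mouse 2 had none, which allows up to 3 reads at its depth. Bpgm (ENSMUSG00000038871, chr6:34476207-34505613) had 34.45, 28.99, 39.22 and 40.42 CPM in controls and 50.87, 43.35, 45.58 and 36.49 CPM in treated mice. The Bpgm means, 35.77 ± 5.204 and 44.08 ± 5.959 CPM (SD, n = 4 each), differed by 0.30 on the log2 scale (SE 0.16), and the highest mouse held only 1.75 times the lowest. Bpgm is also made outside the erythroid lineage.

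In 6 of the 7 genes, all but Hba-a2, 3 of 4 treated mice lay above every control, and in none did the groups separate completely. Among all genes tested, 10.2% had 3 or 4 treated mice above every control, and the groups did not overlap in 1.53% with the treated mice higher and in 1.43% with the treated mice lower. Since the genes were chosen on this contrast, nothing is read from their count. The median log2 fold change of the 6 genes was 2.48, against 0.0034 over all genes tested.

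Per transcript length, as TPM (transcript levels that sum to the same total in each library), the order of the mean levels in controls was Hbb-bs at 191.9, Hba-a1 at 147.4, Hba-a2 at 39.23, Bpgm at 24.55, Hbb-bt at 22.62, Alas2 at 2.328 and Slc4a1 at 0.1024. In treated mice the means were 1252 for Hbb-bs, 994 for Hba-a1, 168.1 for Hbb-bt, 134.3 for Hba-a2, 33.93 for Bpgm, 20.29 for Alas2 and 0.503 for Slc4a1. Hbb-bs exceeded Hba-a1 in 8 of 8 mice, while Hbb-bt exceeded Hba-a2 in 4 of 8 and these neighbours cannot be ordered. By mean TPM, Hbb-bs ranked 550 among all genes in controls and 51 in treated mice, and Hba-a1 ranked 764 and 75.

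The mice were ordered identically by Hba-a1, Hbb-bs, Hbb-bt and Alas2. From high to low the order was treated mouse 1, treated mouse 4, treated mouse 3, control mouse 4, treated mouse 2, control mouse 1, control mouse 3 and control mouse 2. Over the 8 mice, Pearson's r between log2 CPM values of these 4 genes was 0.984 to 0.997 (Spearman's rho 1 for every pair). It was 0.925 to 0.946 between Hba-a2 and these genes, 0.723 to 0.779 between Bpgm and the globins or Alas2, and 0.348 to 0.515 between Slc4a1 and the same genes. These coefficients are a description over 8 mice whose values share library depth and scaling, and, within a globin pair, shared reads. With each value taken relative to its group mean, Hba-a1 and Alas2 still had r = 0.988, whereas Hba-a1 and Bpgm had r = 0.552. Relative to the group means, r between Hba-a2 and Hba-a1, Hbb-bs, Hbb-bt or Alas2 was 0.883 to 0.922. Hba-a1, Hbb-bs, Hbb-bt and Alas2 thus kept together within the groups as well, Hba-a2 departed from them in control mouse 4, and Bpgm and Slc4a1 followed them less closely.

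**Figure D2:**
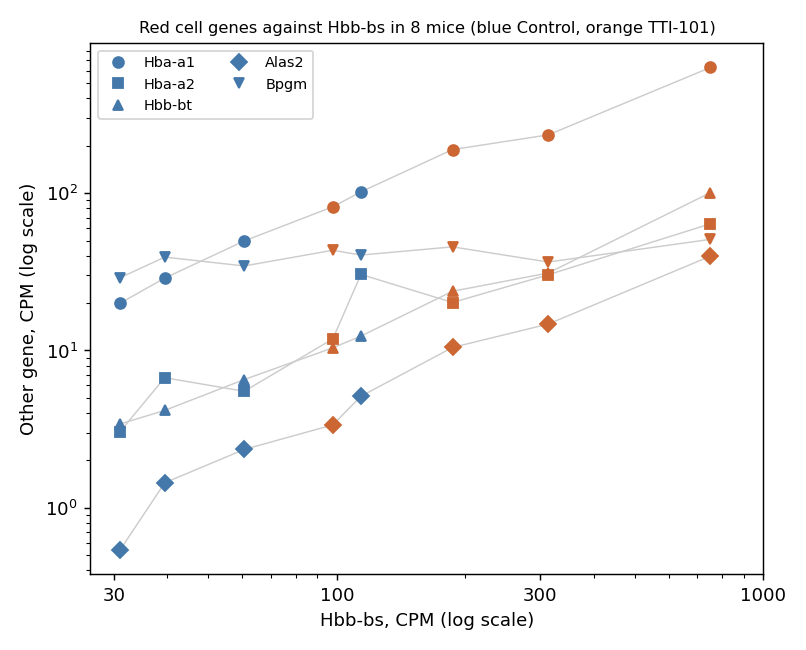
CPM of the other genes (y axis, log scale) against the CPM of Hbb-bs (x axis, log scale) in the 8 mice, coloured by group, with a grey line joining the points of each gene. The points of Hba-a1, Hbb-bt and Alas2 keep 1 order of mice, and those of Bpgm stay between 28.99 and 50.87 CPM.

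The proportions among the transcripts varied far less than their amount. Hbb-bt made 9.72%, 9.9%, 9.53% and 9.78% of beta globin counts in controls and 11.8%, 9.6%, 11.3% and 9.03% in treated mice. Hba-a2 made 9.97%, 13.2%, 18.9% and 23% of alpha globin counts in controls and 9.21%, 12.6%, 9.63% and 11.4% in treated mice. The alpha share was thus highest in control mouse 4, where the 95% Wilson interval was 21.2% to 24.8%, and in control mouse 3 (16% to 22.1%), which overlaps that of control mouse 2 (10.2% to 17%). These intervals cover counting error only. Beta over alpha counts ran from 0.953 in control mouse 4 to 1.5 in control mouse 2, and from 1 to 1.3 in treated mice.

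**Figure D3:**
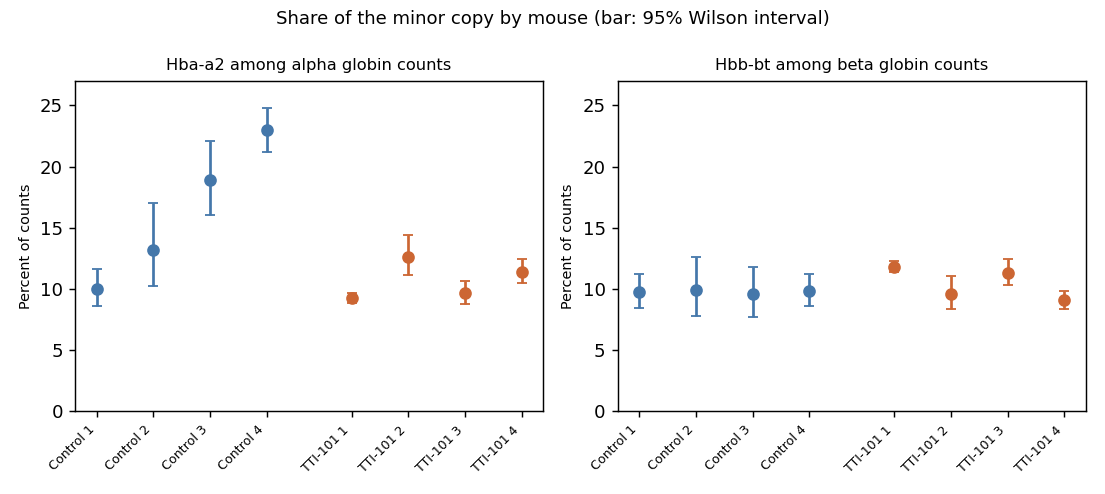
Share of Hba-a2 in alpha globin counts and of Hbb-bt in beta globin counts (y axes, percent, starting at 0) in each mouse, with 95% Wilson intervals. The alpha share reaches 23% in control mouse 4, and the beta share stays between 9.03% and 11.8% in all mice.

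Alas2 gave 19.2, 9.37, 18.2 and 19.8 counts per 1000 globin counts in controls and 25.7, 16.7, 24.9 and 24.2 in treated mice. Treated mice 1, 3 and 4 lay above every control in this ratio, and treated mouse 2 lay below 3 of the 4 controls. Bpgm gave 0.282, 0.505, 0.495 and 0.156 counts per globin count in controls and 0.0329, 0.215, 0.109 and 0.0599 in treated mice, so its level did not scale with that of the globins.

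The same model was then applied to 75 other genes of red cells and of heme and iron handling. No gene of the whole table passed an adjusted p of 0.05 in edgeR's quasi-likelihood test (0% of 17138), while 1132 genes passed an unadjusted p of 0.05 (6.61%). DESeq2 called 4 of 31769 genes at its adjusted p (0.0126%), none of them among these genes or the markers of other cell types given after them, and limma-voom called 0. Of the 75 genes, 55 were tested, 29 with a higher and 26 with a lower fitted value after treatment, and their median log2 fold change was 0.0666. At an unadjusted p, 8 of them passed (14.5%, against 6.61% of all genes), 4 higher (background 3.02%) and 4 lower (background 3.58%). That number was 15 without control mouse 1, 5 without control mouse 3, control mouse 4, treated mouse 1 or treated mouse 4, 18 without treated mouse 2 and 3 without treated mouse 3. Among them were Dmtn, Lmo2 and Bcl11a on the higher side and Tfrc, Alas1, Tent5c and Hmox1 on the lower side, of which Dmtn and Lmo2 are named after their values were seen. With single mice left out, the unadjusted p of Tfrc was at most 0.0491. It rose to 0.0557 for Dmtn and 0.0553 for Lmo2 without treated mouse 3. For Bcl11a it was 0.0566 to 0.0777 without any mouse but control mouse 1 or treated mouse 2, and for Alas1 0.0782 to 0.0962 without control mouse 2, control mouse 3, treated mouse 1 or treated mouse 4. For Tent5c it was 0.0517 to 0.0889 without control mouse 3, control mouse 4 or treated mouse 3, and for Hmox1 0.0585 to 0.101 without control mouse 4, treated mouse 1, treated mouse 3 or treated mouse 4.

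Dmtn, which encodes dematin of the membrane skeleton, was higher in 4 of 4 treated mice than in any control (13.1 ± 4.247 and 21.43 ± 3.137 CPM, SD, n = 4 each), with a log2 fold change of 0.71 and an edgeR adjusted p of 0.657.

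Transcripts that define erythroid cells more narrowly were barely detected. Trim10, a gene of late erythroid cells, had 0, 3, 0 and 0 reads in controls and 12, 4, 6 and 3 reads in treated mice, and is named after its values were seen. Klf1, the erythroid transcription factor that drives adult beta globin, had 0, 7, 4 and 4 reads in controls and 14, 10, 4 and 4 reads in treated mice. Epb42, which encodes a membrane skeleton protein, reached at most 17 reads in any mouse and overlapped between the groups. Of 6 embryonic and theta globin genes none passed the filter, and 2 had no read in any library.

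The other lists differed far less than the globins, and not all in the same direction. Among 17 membrane and blood group genes, 9 were tested, 6 higher and 3 lower, with a median log2 fold change of 0.272 and Dmtn the single gene past an unadjusted p. The extremes of that list were Tmod1, which encodes a cap of short actin filaments (0.87, SE 0.49, or 0.55 without control mouse 4), and Tspan33, a tetraspanin (−0.55, SE 0.33). Among 10 erythroid transcription factors with the erythropoietin receptor, 8 were tested and all 8 had higher fitted values (median 0.403), and 2 passed an unadjusted p. These were Lmo2, a partner of the GATA factors that endothelial cells also make (0.70, adjusted p = 0.657), and Bcl11a, the repressor of fetal globin that B cells also make (1.03, adjusted p = 0.657). The lowest of the 8 was Ldb1, a bridging cofactor, at 0.17 (SE 0.16), or 0.09 without control mouse 4. The 10 genes summed to 210 to 307.4 CPM in controls, the lowest in control mouse 4, and 308.8 to 420.4 CPM in treated mice. These sums did not overlap, and Ldb1 made most of each. Gata1, the master regulator of the lineage, differed by 0.40 (SE 0.67) at under 2 CPM in every mouse, with a range of 0.00 to 0.79 when 1 mouse was left out, the lowest without treated mouse 3 and the highest without control mouse 3. Epor, the erythropoietin receptor, differed by 0.21 (SE 0.37), or by 0.05 without control mouse 4.

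The heme synthesis and iron lists were about evenly split. Among 12 genes of heme synthesis and mitochondrial iron, 5 were higher and 7 lower (median −0.05). Alas1, the housekeeping counterpart of Alas2, had 235.7, 541.9, 527.3 and 427.6 CPM in controls and 241.7, 320.5, 314.8 and 253.5 CPM in treated mice, a log2 fold change of −0.62 (edgeR unadjusted p = 0.032, adjusted p = 0.657). It thus differed in sign from Alas2. Fech, which inserts iron into the porphyrin ring, differed by 0.27 (SE 0.17), and Abcb6, a porphyrin transporter and the highest of its list, by 0.42 (SE 0.39). The value of Slc25a37, the mitochondrial iron importer of erythroid cells, was −0.46 (SE 0.25), or −0.14 without control mouse 4.

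Among 6 genes of iron uptake and storage, 5 were tested, 2 higher and 3 lower (median −0.08), with Steap3, the ferrireductase of erythroid precursors, highest at 0.60 (SE 0.28). Tfrc, the transferrin receptor that erythroid precursors and dividing cells use to take up iron, had 96.78, 79.92, 83.16 and 168.4 CPM in controls and 73.67, 64.79, 49.36 and 73.95 CPM in treated mice. All 4 treated mice lay below every control, and the log2 fold change was −0.71 (edgeR unadjusted p = 0.0157, adjusted p = 0.657), or −0.39 without control mouse 4. In the clearance list, 5 of 6 genes were lower (median −0.41), including Hmox1, the heme-degrading oxygenase (−0.52, adjusted p = 0.657), and Hp, which encodes the hemoglobin-binding haptoglobin (−0.71, adjusted p = 0.657). Without control mouse 4 these were −0.32 (edgeR unadjusted p = 0.101) and −0.46. Blvra, a biliverdin reductase, was the single one higher, at 0.02 (SE 0.16). Tent5c, a poly(A) polymerase of erythroid and plasma cells, differed by −0.61 (edgeR unadjusted p = 0.0249, adjusted p = 0.657), or by −0.37 without control mouse 4 (unadjusted p = 0.0889). The red cell enzymes (6 tested, median −0.01), with carbonic anhydrase Car2 at 0.32 (SE 0.21), Pklr at 0.33 (SE 0.67) and catalase, Cat, at −0.25 (SE 0.18), and the reticulocyte list (9 tested, median −0.10), with the mitophagy receptor Bnip3l at −0.10 (SE 0.13), were balanced around 0. Without control mouse 4, Pklr was at 0.72, Cat at −0.07 and Bnip3l at −0.05.

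**Figure D4:**
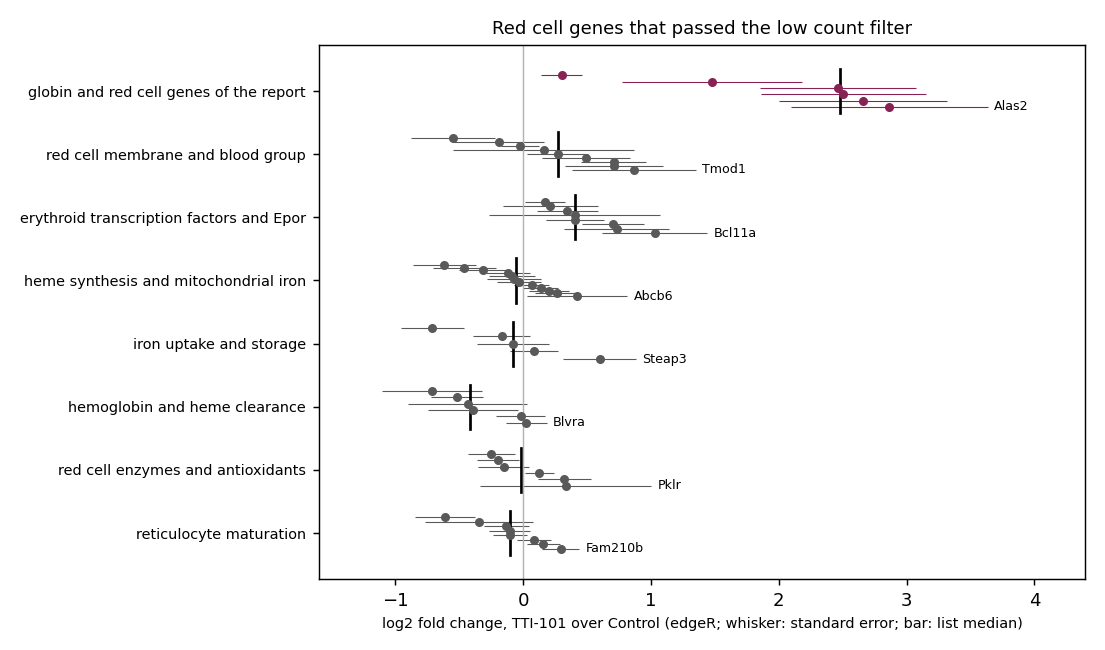
Log2 fold change of TTI-101 against control (x axis) for the tested genes of each list that are reported here (rows), with whiskers giving the standard error and a bar at the median of all tested genes of the list. The globin and Alas2 points stand between 1.48 and 2.87, and Bcl11a, at 1.03, is the highest of the other genes drawn.

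Markers of other cell types in blood and lung also differed between the groups. Of 52 such genes 45 were tested, 31 higher and 14 lower, with a median log2 fold change of 0.502. None passed an adjusted p in edgeR, and 12 (26.7%, against 6.61% of all genes) passed an unadjusted p, 7 higher and 5 lower. That number was 7 without control mouse 3, 6 without control mouse 4 or treated mouse 1, 25 without treated mouse 2 and 4 without treated mouse 3 or treated mouse 4. The part of these cell types in the globin difference was not tested.

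Platelets, like red cells, have no nucleus and carry RNA left from their precursor. The summed level of 12 platelet genes was 74.8 to 108.3 CPM in controls and 75.6 to 125.6 CPM in treated mice, with 1 gene at 0 in all libraries. Of the 11 tested, 10 were higher and 1 lower (median 0.502). Pf4, platelet factor 4, was the lower one, at −0.85 (edgeR unadjusted p = 0.0113, adjusted p = 0.657), and Ppbp, its neighbour on the chromosome, differed by 0.45 (SE 0.33). On the higher side, 3 of the 11 passed an unadjusted p of 0.05 in edgeR, against 3.02% of all genes. These were Itgb3 (0.48), Itga2b (0.71) and Gp6 (1.38), each with an edgeR adjusted p of 0.657. They are named after their values were seen, and their values with single mice left out are not given. The platelet sum of treated mouse 1 lay inside the control range, at 104.1 CPM, while its globin sum was the highest. Treated mice 3 and 4 lay above that range, at 125.6 and 120.1 CPM, and treated mouse 2 lay inside it, at 75.6 CPM.

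The 10 neutrophil genes summed to 224.3 to 548 CPM in controls and 284.7 to 660.8 CPM in treated mice. Of the 9 tested, 8 were higher and 1 lower (median 0.72). Hdc was the lower one, at −0.52 (SE 0.28). It made 285.6 of the 363.3 CPM in control mouse 4 and 173.8 of the 284.7 CPM in treated mouse 2. The sum therefore does not measure the other neutrophil genes in every mouse. S100a8 and S100a9, the most abundant cytosolic proteins of neutrophils, differed by 0.81 (SE 0.77) and 0.88 (SE 0.76). Leaving out 1 mouse moved these values to between 0.47 and 1.35 and between 0.55 and 1.53, in both cases the lowest without control mouse 4 and the highest without control mouse 1. The 8 genes of neutrophil granules summed to 540.9 to 823.3 CPM in controls and 187.6 to 942.2 CPM in treated mice. That sum was almost all Lcn2 and Ltf, which airway epithelium also makes, with 473.3 and 103.3 of the 577.8 CPM in control mouse 1, so it is not a measure of immature neutrophils. Lcn2 differed by −0.92 (edgeR unadjusted p = 0.0247, adjusted p = 0.657), and its unadjusted p was 0.0567 to 0.0737 without control mouse 4, treated mouse 1, treated mouse 3 or treated mouse 4. The genes that mark the marrow stages had few reads in every mouse. Camp had at most 21 reads in any mouse, with a DESeq2 log2 fold change of 1.18. Ngp had 12, 5, 11 and 0 reads in controls and 7, 4, 42 and 52 reads in treated mice. Its log2 fold change was 2.14 (DESeq2 unadjusted p = 0.01965, adjusted p = 0.848), and edgeR without a filter gave an unadjusted p of 0.0567. Prtn3 differed by 1.04 at under 2 CPM in every mouse (edgeR unadjusted p = 0.0298, adjusted p = 0.657). The p of Prtn3 was 0.0506 to 0.0994 without control mouse 3, control mouse 4, treated mouse 1 or treated mouse 2 (unadjusted, edgeR). Hdc, Lcn2, Ltf and Prtn3 are named after their values were seen. The 6 monocyte genes summed to 596.4 to 1156 CPM in controls and 1273 to 1710 CPM in treated mice, and the groups did not overlap. Most of that sum was Ace, which lung capillary endothelium makes in abundance, at 943.2, 930, 758.8 and 319 CPM in controls and 1077, 981.4, 1243 and 1412 CPM in treated mice. The list itself was split, with Ace (0.68, or 0.44 without control mouse 4), Nr4a1 (1.06) and Treml4 (0.95) higher. Ly6c2 (−0.11), Ccr2 (−0.30) and Cd14 (−0.60) were lower, and the edgeR adjusted p was at least 0.657 for each of the 6. All 6 genes are named after their values were seen. For Hdc, Treml4, Ly6c2, Ccr2 and Cd14, values without control mouse 4 are not given.

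The 8 endothelial genes summed to 1228 to 3353 CPM in controls, the lowest in control mouse 4, and 2828 to 4975 CPM in treated mice, and all 8 had higher fitted values (median 0.58, Pecam1 0.51, SE 0.33, or 0.27 without control mouse 4). The 8 epithelial genes summed to 55840 to 98730 CPM in controls, the highest in control mouse 4, and 39620 to 74880 CPM in treated mice, with 7 of 8 lower (median −0.49). Sftpc, surfactant protein C of alveolar type II cells and of these tumors, differed by −0.40 (SE 0.31), or by −0.20 without control mouse 4 and −0.69 without treated mouse 2. Scgb1a1, the club cell secretory protein, differed by −0.75 (edgeR unadjusted p = 0.0450, adjusted p = 0.657), and leaving out any mouse but control mouse 1 or treated mouse 2 gave an unadjusted p of 0.0519 to 0.121. Treated mouse 2, the treated mouse with the fewest globin reads, also had the lowest endothelial and the highest epithelial sum of its group. Among the controls it was the reverse, since control mouse 4, with the lowest endothelial and the highest epithelial sum, had the most globin reads.

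**Figure D5:**
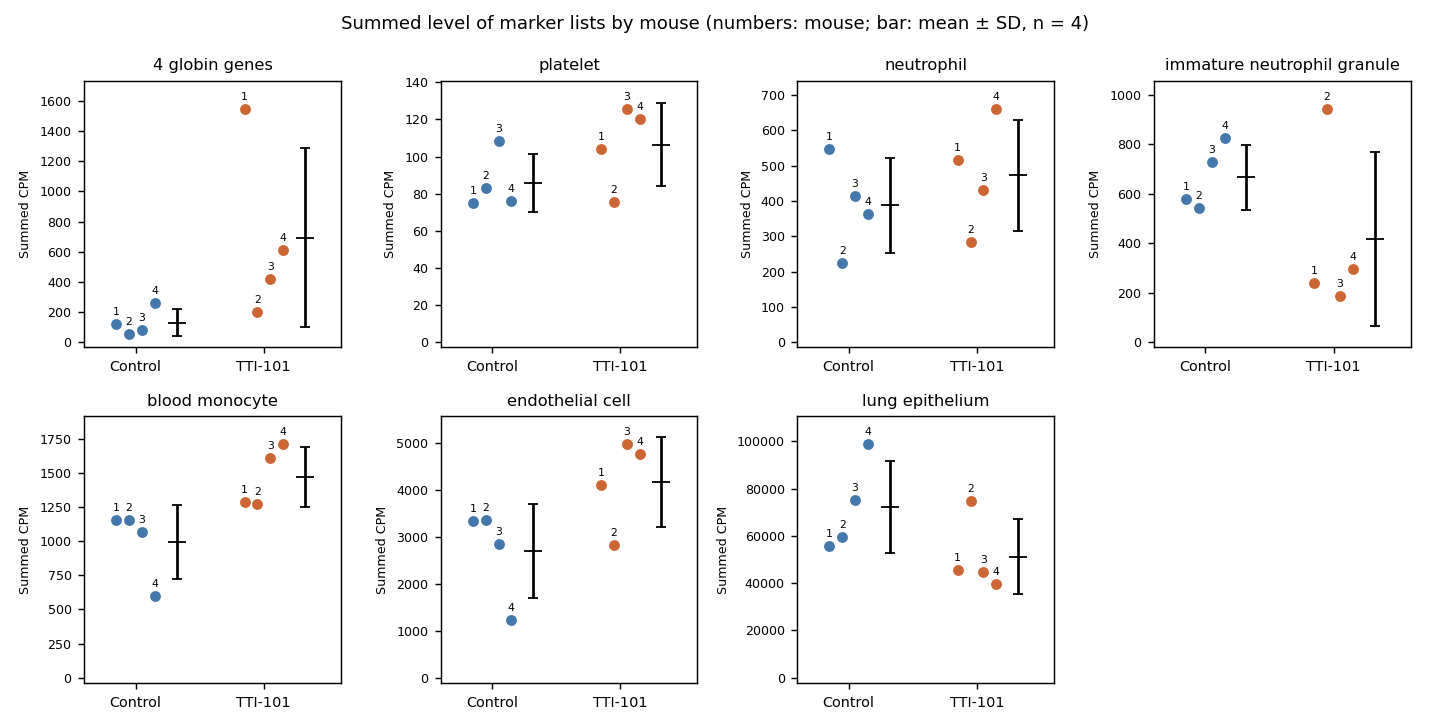
Summed CPM of the 4 globin genes and of each marker list (y axes, linear, a scale of its own for each list) in the 4 control (blue) and 4 TTI-101-treated (orange) mice, with bars giving mean ± SD (n = 4). The highest mouse exceeds the lowest 26.9 times for the globins, and the sum of the monocyte list, most of it Ace, is the only marker sum whose groups do not overlap.

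Among the 8 tested genes outside the chosen set whose levels followed them most closely over the 8 mice were Zfp36 (r = 0.964), Zfp53 (0.927), Pax5 (0.924), Srp54c (0.923), Pmel (0.905), Gpr183 (0.904) and Map3k15 (0.902). Each r is against the mean log2 CPM of the 7 chosen genes with a row, which includes Slc4a1 and its few reads. The 8 genes were selected for this likeness among all tested genes, so it carries no test. Without the 2 mice farthest from the median, r of the correlated genes named here fell to between 0.722 and 0.925. Their differences were small beside those of the globins. Zfp36, an mRNA decay factor, had 165.1 ± 10.19 and 191.5 ± 18.76 CPM (log2 fold change 0.21), and Pax5, the B cell transcription factor, had 22.8 ± 4.576 and 40.46 ± 12.72 CPM (0.83, SD, n = 4 each). Gpr183, a receptor that guides B cells and dendritic cells, differed by 0.66 and Map3k15, a stress kinase, by 1.03.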

How the data were processed

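RNA was taken from the lungs of 8 mice, 1 library each, after poly(A) selection with a stranded, paired-end kit. The authors deposited whole-number counts per gene, not normalized. The submitters' processing notes name STAR, DESeq2 and mm10, and the counting tool and annotation are not given in the sources used here. Counts were tested with edgeR 4.0.16 (quasi-likelihood F test, trimmed mean of M values scaling, filterByExpr with a minimum count of 10) in R 4.3.3, control against TTI-101, with Benjamini-Hochberg adjustment over 17138 genes. Alternatives were DESeq2 1.42.0, limma-voom (limma 3.58.1), other scalings and filters, a replicate block and leaving out each mouse. TPM used the gene lengths of the deposited table, and log2 CPM used a prior count of 2. The model fits were tested on simulated counts in which the spread between mice was capped and no library stood apart. That check does not show how the fits perform on the wider spread seen here. Library totals ran from 16075855 to 26873509 counts, and p-values set the difference between groups against the spread between mice. Gene positions came from the deposited table, coding sequences and untranslated regions from GENCODE on GRCm38, and promoters from RefSeq (Biopython 1.88).

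The chosen genes and all lists were set with earlier results of these data known, and 1 chosen gene and some listed genes are not reported here. Named were the chosen genes, a fixed set of erythroid, heme and marker genes, the tested gene highest and lowest in each red cell list, and the 8 genes most correlated with the chosen ones.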

Additional observations from a re-analysis of the deposited data

Results flagged for a closer look

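In 2 of 24 groups of 4 mice examined, 1 mouse lay far from the other 3, where the gap to its nearest neighbour over the range of the group exceeded Dixon's 95% critical value. Chance flags about 1 in 20 groups, or 1.2 of 24. Hba-a2 in control mouse 4 had a gap of 0.866 of the range, at 30.45 CPM against 3.049 to 6.713 CPM in the other controls. The same mouse had the highest mitochondrial share and the highest share of Hba-a2 in alpha globin counts. The part of library quality in this value was not tested. Alas2 per 1000 globin counts in control mouse 2 had a gap of 0.849 of the range, at 9.365 against 18.21 to 19.78, and this mouse had the fewest globin and Alas2 reads.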

How the results depend on the processing

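The globin difference kept its direction under every alternative run. Leaving out 1 mouse at a time gave log2 fold changes of 1.67 to 3.02 for the summed globins and 1.71 to 3.04 for the median of the chosen genes, the low end without treated mouse 1 and the high end without control mouse 4. It gave 0 to 1 genes past an adjusted p over all genes, the 1 without control mouse 1 or treated mouse 3, 0 to 0 of the other red cell genes, and, at an unadjusted p, 3 to 18 other red cell genes and 4 to 25 other markers. DESeq2 called 4 genes at its adjusted p where edgeR called 0, and without a filter 13 other red cell genes passed an unadjusted p. Leaving out control mouse 4 and treated mouse 1 together, an alternative chosen after seeing the data, left 3 and 5 such genes. The sign turned for Blvra without control mouse 2 (−0.0231), control mouse 4 (−0.0338), treated mouse 3 (−0.0187) or both mice above (−0.0230), otherwise up to 0.117, for Pklr without treated mouse 2 (−0.671, against up to 0.719 with another mouse left out) and for Epor without treated mouse 3 (−0.0701, otherwise up to 0.504). The cause was not tested.

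The labels do not say whether equal replicate numbers pair the mice, and the main fit used no pairing. Deviations of same-numbered mice correlated at 0.393, 0.0822, 0.158 and 0.0707. Those of the other pairs correlated at −0.421 to 0.167, and not every mouse correlated best with its own number. These values do not decide whether the mice were paired. With the replicate number as a block, 0 genes passed an adjusted p and 1298 an unadjusted one, and the summed globins differed by 2.28 on the log2 scale. With 4 mice a group and a treated range of the globins and Alas2 this wide, smaller shifts of these genes could be missed. How small a shift could be detected in the other red cell genes was not tested, and genes with a few reads per library could not be ordered.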
